A study of Mus musculus with 4 samples.

Results

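The integrated stress response genes described here are 10 genes: the eIF2 kinases Eif2ak1, Eif2ak2, Eif2ak3 and Eif2ak4, the transcription factors Atf4, Ddit3 and Xbp1, the phosphatase subunits Ppp1r15a and Ppp1r15b, and the pseudokinase Trib3. They were taken by name, by mapping the 55364 Ensembl gene identifiers of the deposited tables to GENCODE M21 symbols; the rule uses no measured value, but the genes were listed with earlier results of these data known. All 10 symbols were found, under 11 identifiers; the additional Ddit3 entry (chromosome 10, 127290829 to 127293753) held 0 counts in every library and is not considered further. RNA sequencing had been done on pachytene spermatocytes, germ cells in the long prophase of meiosis, purified from mouse testis by centrifugal elutriation. The KK group (2 libraries) carried a homozygous DDX4 knock-in and the WT group (2 libraries) was wild type; Ddx4 encodes DDX4 (vasa), an RNA helicase specific to the germline and a component of germ granules. Strain, age and the number of mice behind a library are not given in the labels, and nothing says that libraries came from separate animals, so p-values measure only how far these samples vary, which can be technical variation.

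The integrated stress response converts several kinds of stress into a common brake on translation. Each kinase phosphorylates the translation initiation factor eIF2, which slows most protein synthesis while the mRNA of Atf4 is translated better; ATF4 then switches on genes for amino acid supply and redox balance, and Ddit3, whose product is CHOP. The PPP1R15 proteins bring protein phosphatase 1 to eIF2 and reverse the mark, and Xbp1 belongs to a parallel branch of the unfolded protein response in the endoplasmic reticulum, in which the sensor IRE1 cuts a short stretch out of its mRNA. In male germ cells, translation is strongly regulated because many transcripts are made well before their proteins. The data hold RNA levels only: eIF2 phosphorylation, translation and protein were not measured.

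Some sequences help to follow the results. The 250 bases upstream of the RefSeq start of Ddit3 (GRCm38.p6, chr10:127290543-127290792, plus strand) and of Atf4 (chr15:80254934-80255183, plus strand) are shown because these were the members whose RNA fell; capitals mark CCAAT boxes, read as ATTGG where the box lies on the other strand.

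Ddit3 promoter: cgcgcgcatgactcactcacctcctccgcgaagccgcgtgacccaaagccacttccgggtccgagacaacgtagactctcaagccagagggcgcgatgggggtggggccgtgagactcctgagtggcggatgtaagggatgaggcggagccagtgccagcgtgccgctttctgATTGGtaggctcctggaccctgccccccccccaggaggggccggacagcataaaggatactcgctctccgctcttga
Atf4 promoter: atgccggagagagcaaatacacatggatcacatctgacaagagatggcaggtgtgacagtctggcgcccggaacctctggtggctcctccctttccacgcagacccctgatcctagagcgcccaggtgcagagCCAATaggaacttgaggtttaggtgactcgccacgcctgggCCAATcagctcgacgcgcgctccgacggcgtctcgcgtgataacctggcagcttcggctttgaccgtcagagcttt

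The box begins at base -77 from the Ddit3 start and at bases -117 and -76 from the Atf4 start. On both strands, CCAAT occurred in 33.8% of the 32851 RefSeq promoter windows of this length, and in those of Atf4, Ddit3, Eif2ak1 and Eif2ak3 among the 9 members with a window. The letters TGATGNAA, the composite element at which ATF4 pairs with a C/EBP partner, were in 3.45% of all windows and in none of these 9 members' windows. The exact letters of the ER stress response element, CCAAT and CCACG with 9 bases between them, were in 0.113% of all windows. They were likewise in none of theirs, though the Ddit3 box, read on its own strand, is followed after 9 bases by GCACG in place of CCACG. The cyclic AMP response element TGACGTCA, present in 1.55% of all windows, was found for Ppp1r15a alone among the 9, at bases -12 to -5. A match is a description of these letters and not evidence of binding.

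For Xbp1, the stretch that IRE1 removes decides how the mRNA is read, and it is shown because the deposited transcript estimates bear on it. It was located as the pair of CNGCNG sites 26 bases apart whose joining lengthens the reading frame, in exon 4 of transcript Xbp1-201 (GRCm38 chr11:5524279-5524304, plus strand) and is printed in capitals with 20 bases on each side (chr11:5524259-5524324).

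Xbp1 stretch: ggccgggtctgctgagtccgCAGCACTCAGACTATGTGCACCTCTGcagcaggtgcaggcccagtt

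With the 26 bases in place the reading frame ran for 267 codons, and without them for 371 codons.

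The checks on these libraries set the scale for what follows. Total expected counts ran from 17970207 to 19438570 per library. Pearson's r of log2 CPM (counts scaled to a common depth) across genes was 0.9938 within KK, 0.9941 within WT and 0.9802 to 0.9811 between genotypes. The targeted gene Ddx4 had 54.44 and 52.49 TPM (transcript abundance corrected for length and depth) in KK, against 264.96 and 272.92 TPM in WT, a log2 fold change of -2.34 ± 0.04 (SE). Summed pachytene markers (10 genes, led by Ldhc) reached 12411 and 12183 TPM in KK, against 12798 and 12661 TPM in WT, with 1 of 10 higher and 6 lower in KK (median log2 -0.22). The 10 spermatid markers reached more in sum, at 17488 and 16901 TPM in KK and 19481 and 19321 TPM in WT (5 higher and 4 lower in KK), so the libraries also held abundant RNA of genes typical of later germ cells. Leydig cell markers, led by Insl3, summed to 2494.4 and 2573.6 TPM in KK and 698.05 and 735.54 TPM in WT, with 9 of 10 higher in KK and none at 0. Of 17 tested immediate early genes, which respond quickly to handling of cells among other stimuli, 10 were higher in KK and 0 lower (summed TPM 203.48 and 215.66 in KK, 136.44 and 139.63 in WT). Of 9 tested spermatogonial markers, 6 were higher in KK and 1 lower, while their sum, led by Dmrtb1, was lower, at 1480.2 and 1529.4 TPM in KK and 1606.8 and 1651.4 TPM in WT. Of 8 tested Sertoli cell markers, 1 was higher and 4 lower (sums of 106.54 and 110.33 TPM in KK, 119.18 and 118.78 TPM in WT). Peritubular and endothelial markers (3 of 6 higher, 0 lower) summed to 5.97 and 5.53 TPM in KK and 3.63 and 4.16 TPM in WT, and macrophage markers (2 of 6 higher, 0 lower) to 7.28 and 11.23 TPM in KK and 4.32 and 5.62 TPM in WT. Whether these shifts have a part in the members' results was not tested, and in bulk RNA fewer cells of a type and less RNA per cell cannot be told apart.

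Across the members, the knock-in went with lower Ddit3 and Atf4 RNA and with no called rise. In edgeR's quasi-likelihood test, 9 of the 10 members passed the expression filter; 2 of these 9 were lower in KK (22.2%) at an adjusted p of 0.05, 0 were higher and 7 were not called. Over all 16571 genes tested, 21.7% were lower and 22% higher (43.7% in either direction; 15.2% lower and 27.3% higher with library size scaling), so the share of members that fell was close to that of genes in general. At an unadjusted p of 0.05, 1 member (Ppp1r15a) was higher and 2 were lower, against 25.6% and 25.1% of all genes. DESeq2 called 0 members higher and 1 lower, against 7.59% and 9.42% of the 26828 genes to which it gave a p-value. These included genes below the expression filter and genes left without an adjusted p, which could not be called. Both shares would be higher over the genes that it could call. limma called 0 higher and 1 lower on log2(TPM + 1), against 13.7% and 9.36% of genes, and the same numbers on log2(TPM + 0.1), against 13.3% and 9.35%. The median log2 fold change was -0.08 over the 9 members and 0.00 over all genes tested, whose central 50% ran from -0.24 to 0.43. The CPM values of the genotypes did not overlap for 6 of the 9 tested members, where 70.8% of all genes did not overlap; in TPM this held for 3 of 9, against 65.6%. Summed over the 10 members, TPM stood at 271.07 and 268.42 in KK, against 328.49 and 308.88 in WT; most of this sum was Ddit3.

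**Figure D1:**
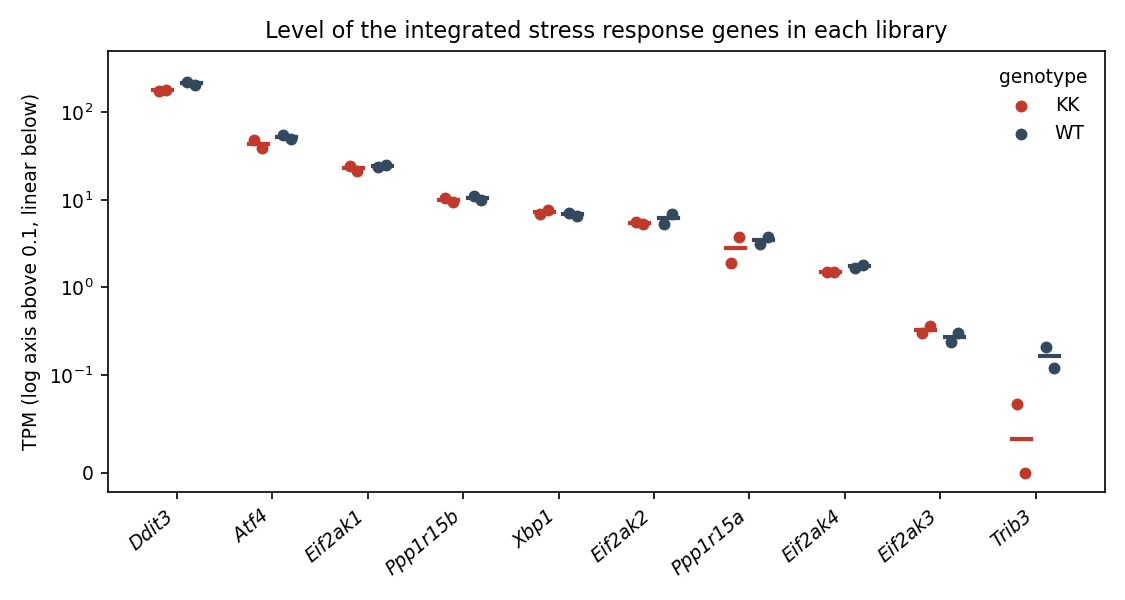
TPM of each member in each library (points; the axis is logarithmic above 0.1 and linear below), KK left of WT, with the genotype mean as a line. Members span from Ddit3, at 172.21 to 221.08 TPM, to Trib3, at 0 to 0.21 TPM, and the genotypes lie close together for most.

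The levels of the members differed far more between genes than between genotypes. By mean TPM over the 4 libraries, Ddit3 came first (195), then Atf4 (47.7), Eif2ak1 (23.7), Ppp1r15b (10.2), Xbp1 (7.02), Eif2ak2 (5.79), Ppp1r15a (3.15), Eif2ak4 (1.63), Eif2ak3 (0.30) and Trib3 (0.10). The ranges of neighbours in this order did not overlap over the libraries, with the exception of Xbp1 (6.50 to 7.58 TPM) and Eif2ak2 (5.28 to 6.92 TPM). Ddit3 lay above 93.8% of the genes tested by mean TPM, and Eif2ak3 above 3.13%.

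Ddit3 encodes CHOP, a C/EBP-family factor that ATF4 induces and that promotes cell death under prolonged stress. Its RNA fell in KK, by 16.9%. Ddit3 (ENSMUSG00000025408, GRCm38 chromosome 10, 127290774 to 127296288, plus strand, protein coding) had 172.21 and 180.51 TPM in KK, against 221.08 and 204.72 TPM in WT. Both KK libraries lay below both WT libraries. In expected counts, the authors' estimates of reads per gene, it had 1555 and 1483 in KK and 1736 and 1714 in WT. Scaled for depth, this was 79.1 ± 2.31 CPM in KK and 95.2 ± 4.84 CPM in WT (mean ± SD, n = 2 each). Its log2 fold change was -0.27 ± 0.05 (SE; 95% interval -0.38 to -0.16; edgeR adjusted p = 0.00015). It kept its call in all 14 alternative settings, between -0.32 and -0.18, with adjusted p from 5.68e-06 to 0.0251. Nearly all of the signal came from transcript Ddit3-201, which held 99.57% and 99.18% of the gene's transcripts in KK and 99.13% and 99.32% in WT. Ddit3 shares 68 exonic bases with Mars on the other strand, and the library kit does not mark strand; Mars itself changed by -0.06 (log2, adjusted p = 0.525).

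Atf4, the central transcription factor of the response, also fell, by 14.9%, with a less stable call. Atf4 (ENSMUSG00000042406, chromosome 15, 80255184 to 80257541, plus strand) had 47.7 and 38.7 TPM in KK, against 54.7 and 49.76 TPM in WT. The genotypes did not overlap, but the KK libraries lay further from each other than the nearest KK library did from WT. The expected counts were 930 and 750 in KK and 880 and 981 in WT, or 43.6 ± 3.89 CPM in KK and 51.2 ± 1.79 CPM in WT (n = 2 each). The log2 fold change was -0.23 ± 0.08 (95% interval -0.40 to -0.07; edgeR adjusted p = 0.0195). The call was lost in 7 of 14 alternatives, where the adjusted p rose to as much as 0.185. Without KK replicate 2 the log2 fold change was -0.15 (adjusted p = 0.185), and without WT replicate 2 it was -0.20 (adjusted p = 0.0979).

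The transcripts of Atf4 varied between libraries of 1 genotype as well as between genotypes. The full coding transcript Atf4-201 held 78.83% and 86.91% in KK and 72.54% and 86.60% in WT. The shorter coding model Atf4-202 held 17.33% and 7.44% in KK and 23.63% and 7.44% in WT. For both transcripts the libraries of a genotype lay further apart than the genotype means, and the genotypes overlapped. The retained-intron transcript Atf4-203 held 3.84% and 5.65% in KK and 3.83% and 5.96% in WT. Ddit3 exceeded Atf4 in TPM by 3.61 and 4.66 times in KK and 4.04 and 4.11 times in WT, ranges that overlap.

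**Figure D2:**
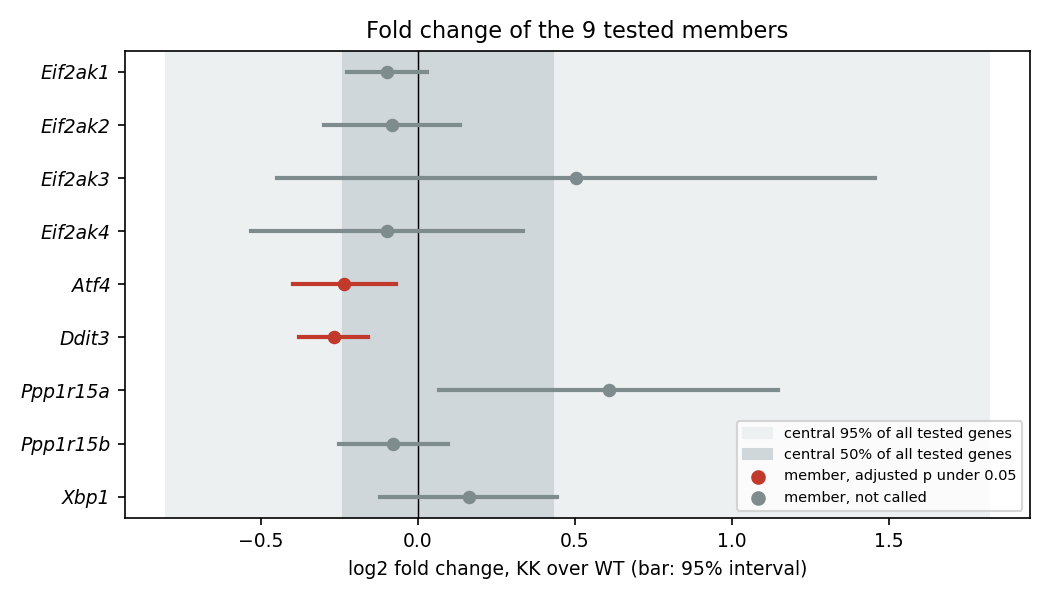
Log2 fold change of the 9 tested members, KK over WT (points, with 95% intervals as bars), over shaded bands for the central 50% and 95% of all tested genes. Ddit3 and Atf4, in red, passed an adjusted p of 0.05; all 9 points lie within the central 95%, which runs from -0.80 to 1.82.

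Of the kinases, none was called in either direction (smallest unadjusted p 0.127). Eif2ak1 encodes HRI, best known as the heme-regulated kinase of erythroid cells and also a relay of mitochondrial stress. Eif2ak1 (chromosome 5, 143817788 to 143904251, plus strand) had 24.51 and 21.36 TPM in KK and 23.84 and 24.96 TPM in WT. The genotypes overlapped, and the log2 fold change was -0.10 ± 0.06 (95% interval -0.22 to 0.03; adjusted p = 0.21). Without KK replicate 1 it was -0.20. Eif2ak1 shares 172 exonic bases with Ankrd61 and 487 with Aimp2 on the other strand; Ankrd61 was higher in KK (log2 0.64, adjusted p = 1.23e-08), and its part in the Eif2ak1 counts was not tested.

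Eif2ak2 encodes PKR, the kinase activated by double-stranded RNA. Eif2ak2 (chromosome 17, 78852564 to 78882573, minus strand) had 5.61 and 5.28 TPM in KK and 5.35 and 6.92 TPM in WT. The genotypes overlapped in TPM but not in CPM (13.99 and 14.96 in KK, 15.11 and 15.52 in WT). The log2 fold change was -0.08 ± 0.11 (95% interval -0.30 to 0.13, edgeR adjusted p = 0.562). Transcript Eif2ak2-203 (574 bases, at most 7 estimated counts per library) held 21.96% and 10.33% in KK and 10.68% and 26.87% in WT. The main transcript Eif2ak2-201 had 4.37 and 4.74 TPM in KK, against 4.78 and 4.82 TPM in WT. Eif2ak4 encodes GCN2, which senses uncharged tRNA when amino acids are short. Eif2ak4 (chromosome 2, 118388618 to 118475234, plus strand) had 1.5 and 1.52 TPM in KK, against 1.67 and 1.81 TPM in WT. The TPM values stood apart, but the expected counts, 75 and 87 in KK and 77 and 87 in WT, overlapped, and the log2 fold change was -0.10 ± 0.21 (95% interval -0.53 to 0.34; adjusted p = 0.743).

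Eif2ak3 encodes PERK, the kinase that senses unfolded protein in the endoplasmic reticulum. It was the scarcest kinase: Eif2ak3 (chromosome 6, 70844515 to 70905245, plus strand) had 0.30 and 0.36 TPM in KK and 0.24 and 0.30 TPM in WT. These levels rest on 20 and 22 expected counts in KK and 10 and 18 in WT. The log2 fold change of 0.50 ± 0.46 had a 95% interval of -0.45 to 1.46, which spans falls as well as rises, so no difference was detectable at this depth (adjusted p = 0.402).

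The kinases kept the same order of TPM in every library. Eif2ak1 held 76.79% and 74.89% of the summed TPM of the 4 kinases in KK, against 76.66% and 73.43% in WT. Eif2ak2 held 17.58% and 18.51% in KK and 17.2% and 20.36% in WT. Eif2ak4 held 4.70% and 5.33% in KK and 5.37% and 5.33% in WT, and Eif2ak3 held 0.940% and 1.26% in KK and 0.772% and 0.883% in WT. In every library HRI therefore gave most of the kinase RNA and PERK the least, which says nothing of kinase activity.

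Of the Eif2ak4 transcripts, the full-length Eif2ak4-201 held 13.76% and 73.13% in the KK libraries and 42.73% and 49.35% in the WT libraries. The short coding model Eif2ak4-203 held 46.02% and 26.87% in KK and 43.09% and 45.51% in WT. The KK libraries bracket the WT libraries in both, and with at most 78.75 counts on any Eif2ak4 transcript the split is poorly set.

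The phosphatase subunits differed in how firmly they were measured. Ppp1r15b encodes CReP, the constitutive subunit. Ppp1r15b (chromosome 1, 133131143 to 133139783, plus strand) had 10.4 and 9.38 TPM in KK and 11.1 and 10.02 TPM in WT. The genotypes overlapped; the log2 fold change was -0.08 ± 0.09 (95% interval -0.25 to 0.10; adjusted p = 0.492). CReP RNA made up 84.42% and 71.55% of the summed TPM of the pair in KK, against 77.79% and 72.66% in WT. These shares use the gene TPM of Ppp1r15a, which includes a short transcript with at most 2.56 estimated counts per library. The main transcript Ppp1r15a-201 alone had 1.92 and 2.68 TPM in KK, against 1.37 and 1.51 TPM in WT. Ppp1r15b shares 640 exonic bases with Gm26616 on the other strand.

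Ppp1r15a encodes GADD34, the stress-induced subunit that ATF4 and CHOP raise, and its direction depended on the unit. Ppp1r15a (chromosome 7, 45522916 to 45526268, minus strand) had 61 and 79 expected counts in KK, against 40 and 47 in WT. Both KK libraries lay above both WT libraries in counts. In CPM this was 3.67 ± 0.89 in KK and 2.39 ± 0.17 in WT (n = 2 each). The test gave a log2 fold change of 0.61 ± 0.26 (95% interval 0.07 to 1.15; edgeR adjusted p = 0.0628), which did not pass. In TPM, Ppp1r15a had 1.92 and 3.73 in KK and 3.17 and 3.77 in WT, where the genotypes overlapped and the KK mean was the lower. limma on log2(TPM + 1) gave -0.26 (adjusted p = 0.517) and edgeR with an effective length offset gave -0.32 (adjusted p = 0.557).

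The deposited transcript estimates show where counts and TPM part. The effective length by which the authors divided the gene's counts was 2016.07 and 1467.80 bases in KK, against 911.76 and 851.39 bases in WT. It follows the share given to Ppp1r15a-203, a coding model of 389 bases, which was 0% and 28.12% in KK and 56.78% and 60.07% in WT. That share rests on 0 and 1.13 estimated counts in KK and 1.86 and 2.56 in WT. The main transcript Ppp1r15a-201, of 2333 bases, had 61 and 77.87 counts in KK, against 38.14 and 44.44 in WT. In TPM of its own it had 1.92 and 2.68 in KK and 1.37 and 1.51 in WT, so both KK libraries lay above both WT libraries once the short model was set aside. The opposite directions of Ppp1r15a thus rest on fewer than 3 estimated counts per library. Its neighbour Tulp2 on the other strand, higher in KK by 0.56 (log2, adjusted p = 8.05e-13), shares 12 exonic bases with it, or 0.409% of the exonic bases of Ppp1r15a.

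**Figure D3:**
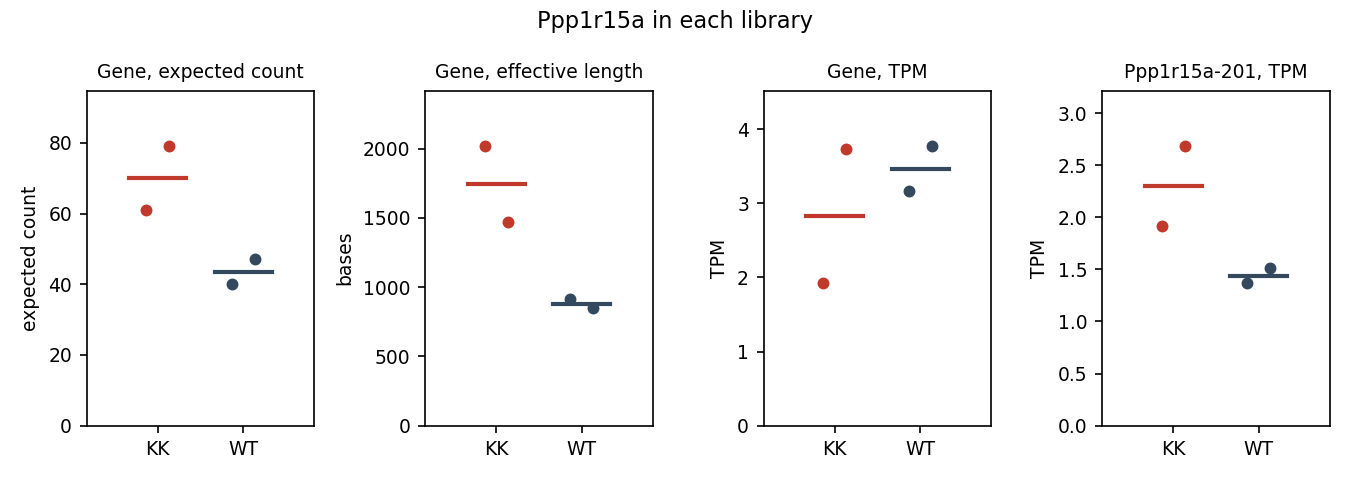
Ppp1r15a in each library (points, with the genotype mean as a line), KK left of WT: expected count, effective length in bases, gene TPM and TPM of transcript Ppp1r15a-201. Counts and the TPM of the main transcript are higher in both KK libraries, whereas gene TPM overlaps (1.92 and 3.73 in KK, 3.17 and 3.77 in WT).

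Xbp1, the transcription factor of the IRE1 branch, was not called. Xbp1 (chromosome 11, 5520659 to 5525893, plus strand) had 195 and 187 expected counts in KK, against 164 and 158 in WT. In TPM it had 6.85 and 7.58 in KK and 7.13 and 6.50 in WT, and the genotypes overlapped. The log2 fold change was 0.16 ± 0.14 (95% interval -0.12 to 0.44; adjusted p = 0.361). Transcript Xbp1-201, which keeps the 26 bases printed above, held 99.04% and 91.27% in KK and 86.37% and 86.30% in WT. A transcript of 1116 bases that GENCODE M21 does not hold had 0.83 and 0 estimated counts in KK and 8.44 and 0 in WT. Its length equals that of the reading frame without the 26 bases (1116 bases), but its sequence was not used here and it had a count above 1 in 1 library only. The share of Xbp1 mRNA cut by IRE1 was therefore not measured.

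Trib3 encodes a pseudokinase that ATF4 and CHOP induce. Trib3 (chromosome 2, 152337422 to 152344032, minus strand) had 2 and 0 expected counts in KK and 5 and 3 in WT, too few for the test. The KK to WT ratio of its summed counts, scaled for depth, was 0.236 with an exact 95% interval of 0.0244 to 1.18, which covers counting error only. Its paralogues were also scarce: Trib1 was not called (log2 0.67 ± 0.35, adjusted p = 0.128) and Trib2, with 8 counts over KK and 4 over WT, was not tested.

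**Figure D4:**
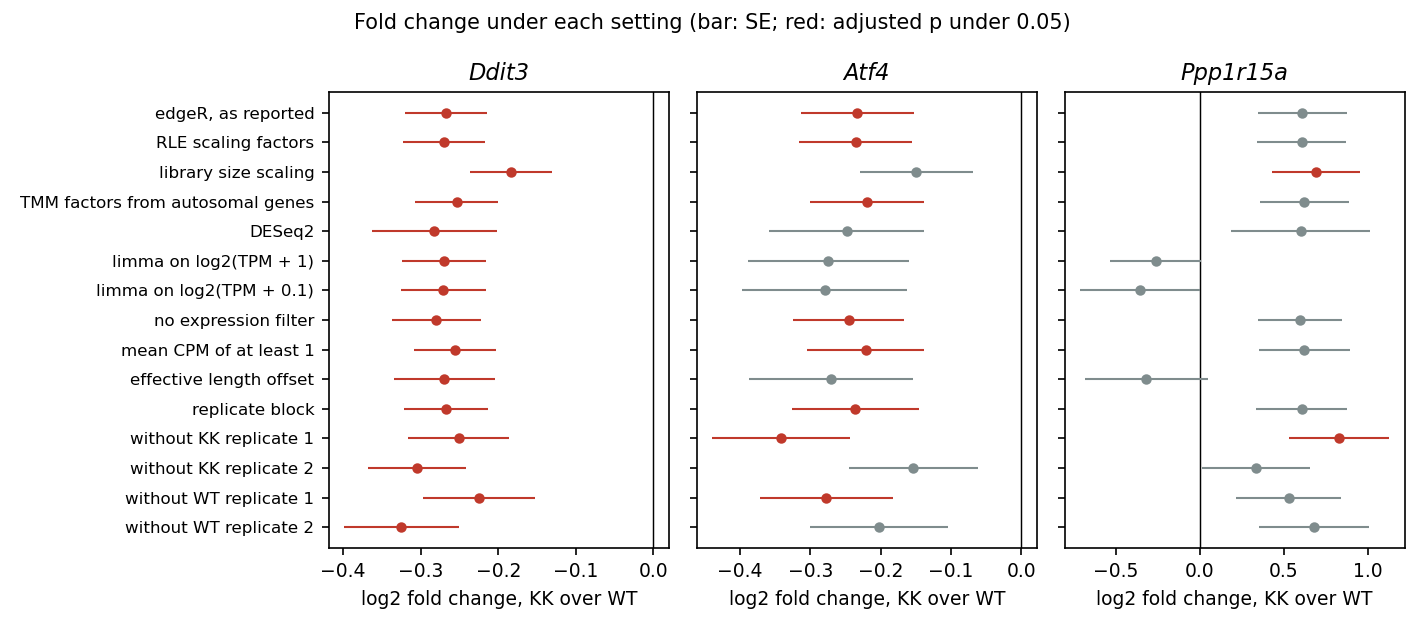
Log2 fold change, KK over WT (points, SE as bars), of Ddit3, Atf4 and Ppp1r15a in the reported fit and each alternative; red marks an adjusted p under 0.05. Ddit3 is red throughout (-0.32 to -0.18), Atf4 in the reported fit and 7 of 14 alternatives, and Ppp1r15a lies on both sides of 0 (-0.36 to 0.83).

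The genes on which these factors act were read from lists of known targets and partners. Of 26 tested targets of ATF4 and CHOP, 10 were higher in KK (38.5%), 5 lower (19.2%) and 11 not called, against 22% higher and 21.7% lower over all genes; their median log2 fold change was 0.21, against 0.00 over all genes. Ddit3 and Atf4 themselves were lower in the same libraries, and a link between these and the targets was not tested. Whether the shifts of cell type markers and immediate early genes given above have a part in the targets' calls was not tested either. DESeq2 called 5 targets higher and 3 lower, where it called 7.59% and 9.42% of 26828 genes. That set includes genes below the expression filter and genes without an adjusted p. These shares are therefore not on the same base as the 26 targets. limma on log2(TPM + 1) called 5 higher and 1 lower, where it called 13.7% and 9.36%. Cebpb, a C/EBP factor that pairs with both CHOP and ATF4, had 3.47 and 5.32 TPM in KK, against 0.55 and 0.63 TPM in WT (log2 2.87 ± 0.37, adjusted p = 2.06e-07). Asns, the asparagine synthetase gene and a classical ATF4 target, had 38.52 and 36.09 TPM in KK, against 19.13 and 23.01 TPM in WT. Its log2 fold change was 0.84 ± 0.09 (adjusted p = 5.84e-09), called in all 14 alternatives; Asns was chosen after its values were seen. Bcl2l11, whose product BIM promotes apoptosis, rose by 1.34 ± 0.34 (log2, adjusted p = 0.00178), a call lost in 3 alternatives. Cebpg, a dimer partner of ATF4, had 107 ± 0.149 CPM in KK and 138 ± 1.11 CPM in WT (n = 2 each; log2 -0.37 ± 0.04, adjusted p = 5.1e-08). In TPM Cebpg overlapped, at 62.43 and 64.21 in KK and 65.04 and 64.11 in WT, and its call was lost in 3 alternatives. Shmt2, a mitochondrial serine hydroxymethyltransferase, was lower by log2 -0.36 ± 0.14 (adjusted p = 0.0391), a call lost in 9 alternatives.

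Of 21 tested genes of eIF2 and its partners, 2 were higher (9.52%), 5 lower (23.8%) and 14 not called, with a median log2 fold change of -0.04. Over all genes tested, 22% were higher and 21.7% lower. Their summed TPM was 2200.7 and 2173.6 in KK, against 2474.3 and 2524.5 in WT, so both KK libraries lay below both WT libraries; no test was run on the sum. Eif2s1, the subunit that the kinases phosphorylate, had 104.84 and 102.99 TPM in KK, against 105.66 and 115.35 TPM in WT. It was not called in the reported fit (log2 -0.09 ± 0.04, edgeR adjusted p = 0.0618). With no expression filter it was called lower (log2 -0.10, edgeR adjusted p = 0.0419). Eif5, the GTPase activator of eIF2, fell by 0.54 on the log2 scale (SE 0.03, adjusted p = 3.36e-13), and Eif2s3y, the Y-linked copy of the gamma subunit, rose by 1.05 ± 0.11 (adjusted p = 1.32e-08). Of 17 regulators of the kinases and the phosphatase, 3 were higher (17.6%), 4 lower (23.5%) and 10 not called (median 0.01), near the shares over all genes. Ppp1ca, a catalytic subunit that the PPP1R15 proteins can recruit, had 9.68 and 10.18 TPM in KK, against 4.21 and 4.80 TPM in WT (log2 1.11 ± 0.17, adjusted p = 6.48e-06). Ppp1cc, the catalytic subunit that prevails in testis, was far more abundant, at 1334.15 and 1305.67 TPM in KK and 1414.97 and 1409.24 TPM in WT. Ppp1cc was called slightly lower (log2 -0.095 ± 0.034, edgeR adjusted p = 0.0258), a call lost in 9 alternatives. Hsp90aa1, a chaperone that several kinases need, fell by 0.22 on the log2 scale (SE 0.03, adjusted p = 5.21e-06).

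Of 32 tested chaperone and ERAD targets of XBP1 and ATF6, 8 were higher, 8 lower and 16 not called (25% in each direction, near the 22% and 21.7% over all genes; median -0.03). With library size scaling 12 were higher and 3 lower, where 27.3% and 15.2% of all genes were called. Hspa5, the chaperone BiP that holds the sensors inactive, had 385.74 and 378.21 TPM in KK, against 368.42 and 357.77 TPM in WT. In the reported fit Hspa5 was not called (log2 0.07 ± 0.03, edgeR adjusted p = 0.0884). It was called higher with library size scaling (0.16), TMM factors from autosomal genes (0.09) and a filter at a mean CPM of at least 1 (0.09). Pdia4, a disulfide isomerase, was higher (0.57 ± 0.10, adjusted p = 1.53e-05), as was Edem1, a lectin of the degradation pathway (0.75 ± 0.17, adjusted p = 0.00052; lost in 3 alternatives). Syvn1, the ubiquitin ligase of that pathway, was lower (-0.46 ± 0.06, adjusted p = 1.7e-07). Of 11 other stress sensors, 3 were higher, 3 lower and 5 not called (27.3% in each direction; median 0.31). Ern1, which encodes IRE1, was not called in the reported fit (0.57 ± 0.32, edgeR adjusted p = 0.156). It was called higher with the effective length offset (1.28, adjusted p = 0.0212) and with limma on log2(TPM + 1) (0.51, adjusted p = 0.0492). Creb3l4, a membrane-bound factor of spermatogenic cells, was higher (0.64 ± 0.05, edgeR adjusted p = 3.9e-11). Rtcb, the ligase that joins cut Xbp1 mRNA, was lower (-0.36 ± 0.08, edgeR adjusted p = 0.000321). Of 20 aminoacyl-tRNA synthetases, many of which ATF4 can induce, 2 were higher, 7 lower and 11 not called (median -0.07), among them Yars, lower by log2 -0.37 ± 0.09 (adjusted p = 0.000916; lost in 2 alternatives), and Vars, higher by 0.26 ± 0.04 (adjusted p = 2.56e-06; lost in 2 alternatives).

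**Figure D5:**
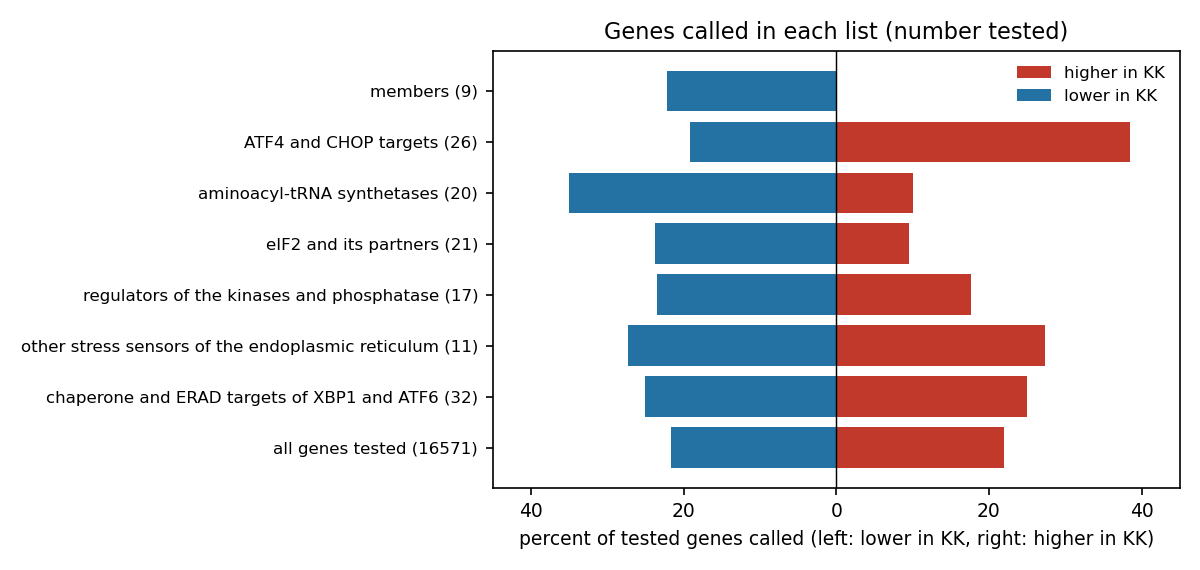
Percent of the tested genes of each list that were called higher (right, red) or lower (left, blue) in KK, with the number tested beside each name. The targets of ATF4 and CHOP reach 38.5% higher and the synthetases 35% lower, against 22% and 21.7% over all genes tested; no list was tested against the rest.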

How the data were processed

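Spermatocytes were digested from testis and elutriated, and total RNA of 2 KK and 2 WT libraries was sequenced from unstranded libraries, per the labels' protocols. The submitters' processing notes name Bowtie, GRCm38 and mm10; the quantifier is not given in the sources used here. The authors deposited, for genes and isoforms, expected counts, TPM and effective lengths, as well as each isoform's percent of its gene's transcripts, per the file headers. Symbols came from GENCODE M21, which held 55104 of the 55364 identifiers. Rounded expected counts were tested with edgeR 4.0.16 (R 4.3.3), using TMM scaling, filterByExpr and a quasi-likelihood model with genotype as its term; p-values were adjusted by Benjamini-Hochberg over 16571 genes at 0.05. CPM is on the TMM scale. Each SE was derived from the log2 fold change and the square root of its F statistic. The code was tested on simulated data. Alternatives were other scaling factors, DESeq2 1.42.0, limma 3.58.1 on log2(TPM + 1) and log2(TPM + 0.1), other filters, an effective length offset, a replicate block, and each library left out.

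The members and the lists were chosen with earlier results of these data known. From each list, up to 2 genes higher and 2 lower were named, by size of change among called genes that averaged at least 1 CPM and whose genotypes did not overlap, with direct partners of the members added; not every one is reported here.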

Additional observations from a re-analysis of the deposited data

How the results depend on the processing

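Ddit3 kept its direction and its call in all 14 alternatives, and Xbp1 kept its direction without a call. Atf4 lost its call with library size scaling (-0.15), DESeq2 (-0.25), limma on log2(TPM + 1) (-0.27) and log2(TPM + 0.1) (-0.28) and the effective length offset (-0.27), and ranged from -0.34 to -0.15 with 1 library left out. Ppp1r15a turned to -0.26 and -0.36 in limma on log2(TPM + 1) and log2(TPM + 0.1) and to -0.32 with the effective length offset. It passed the edgeR test with library size scaling (0.69, adjusted p = 0.0361). With 1 library left out it stayed above 0, from 0.33 without KK replicate 2 to 0.83 without KK replicate 1. Library size scaling, which shifts the median of all genes by 0.084, turned Eif2ak2 to 0.0014 and Ppp1r15b to 0.0069. With 1 library left out, Eif2ak4 ranged from -0.28 to 0.054 and Eif2ak1 from -0.20 to -0.019. With the replicate number as a block, 3675 genes were higher and 3634 lower and no member changed its call. The labels state no pairing, so the numbers were not taken to pair samples. Same-numbered libraries did not deviate together (r = -0.07 across genes), but 2 pairs cannot show whether samples were paired. The cause of these changes was not tested, except that the TPM and effective length settings use the deposited effective lengths. Depth limits Eif2ak3 and Trib3 most.

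Library size scaling called 1 member higher (Ppp1r15a), where it called 27.3% of all genes higher. The other settings that used all 4 libraries called 0 members higher. Members called lower numbered 1 with library size scaling, DESeq2, both limma settings and the effective length offset. Of the genes tested in each, 15.2% were lower with library size scaling and 12.5% with the effective length offset. With DESeq2 the share was 9.42% of all genes given a p-value, including those without an adjusted p. For limma the shares were 9.36% on log2(TPM + 1) and 9.35% on log2(TPM + 0.1). Over all genes, calls fell to 2037 higher with DESeq2, to 2275 higher and 1551 lower with limma on log2(TPM + 1), to 2209 higher and 1549 lower with limma on log2(TPM + 0.1), and to 2075 lower with the effective length offset; library size scaling called 4521 higher and 2516 lower, where the reported fit called 3648 and 3589.

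Shares over all genes also moved with the setting. Those called higher were 22% in the reported fit, 27.3% with library size scaling and 15.1% with the effective length offset. Called lower were 21.7%, 15.2% and 12.5% in the same order. DESeq2 called 7.59% higher and 9.42% lower of its wider set, and limma on log2(TPM + 1) 13.7% and 9.36%. Calls in the lists moved as follows, and whether they moved more than all genes was not tested. Targets of ATF4 and CHOP called higher numbered 5 with DESeq2 and both limma settings and 6 with the effective length offset; those called lower numbered 3 with DESeq2, 2 with library size scaling, 1 with both limma settings and the effective length offset, and 3 to 5 with 1 library left out. Synthetases called higher numbered 4 with library size scaling, 1 with DESeq2 and limma, and 1 to 2 with 1 library left out; those called lower numbered 3 with limma. Partners of eIF2 called higher numbered 1 with DESeq2, and those called lower 3 with library size scaling and limma. Regulators called higher numbered 7 with library size scaling, 1 with limma, and 3 to 5 with 1 library left out; those called lower numbered 2 with library size scaling, limma and the effective length offset, and 2 to 5 with 1 library left out. Other stress sensors called higher numbered 1 with DESeq2 and 1 to 3 with 1 library left out; those called lower numbered 1 with library size scaling, DESeq2, limma and the effective length offset, and 1 to 3 with 1 library left out. Chaperone and ERAD targets called higher numbered 12 with library size scaling, 5 with DESeq2 and the effective length offset, 2 with limma, and 4 to 8 with 1 library left out; those called lower numbered 3 with library size scaling, 4 with DESeq2 and the effective length offset, 2 with limma, and 4 to 8 with 1 library left out.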
